A study of Mus musculus with 2 samples.

Results

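Histones package DNA into nucleosomes. Here their messages were compared between thymus of mice carrying a Pla2g10 transgene and thymus of littermates. The members were all probes for transcripts whose gene name on the array began with Hist and a digit, or with H1f, H2af or H3f, with H2afx left out. This gave 69 probes for 46 of the 27835 genes named on the array. Of the 46, 34 are replication-dependent histone genes (the Hist names, 46 probes) and 12 are replacement histone genes (23 probes). The brightest probe stood for each gene.

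Both groups were 6-month-old C57BL/6 mice on the same standard diet, and they differed in genotype, Pla2g10-Tg/+ or littermate control. Thymus RNA of 4 mice was pooled per genotype, and 500 ng of RNA was amplified, labelled and hybridised on 2 two-colour Agilent arrays with the dyes exchanged. On array 1 the transgenic pool was in the red channel (Cy5) and on array 2 in the green channel (Cy3). The labels do not say whether the arrays hold separate pools. They were taken as a dye swap of 1 pool per genotype, so each genotype counted as 1 replicate, no test across animals was possible, and every SD below is the spread between the 2 arrays. Which promoter drives the transgene is not stated in the labels.

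Replication-dependent histone genes lie in clusters, are transcribed in S phase, and make messages that end in a stem-loop in place of a poly(A) tail. A complex that holds the stem-loop binding protein cuts these messages, which are degraded when DNA synthesis stops. Replacement histones are made throughout the cell cycle from polyadenylated messages and enter chromatin outside replication, and the linker histone H1f0 is known for accumulating in cells that have stopped dividing. The thymus is a site of intense cell division, because immature T cells (thymocytes) expand there before selection. Quick Amp labelling, the kit named in the labels, primes from poly(A) tails, so it is meant for the polyadenylated copies of a message. Whether the signal of the replication-dependent genes came from such copies was not tested.

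Measured means that the brightest probe stood well above background on both arrays for at least 1 genotype. By this rule 39 of the 46 histone genes were measured, 29 replication-dependent and 10 replacement, among 9415 measured genes in all. Hist1h1t, Hist1h2ac, Hist1h2ae, Hist1h2be, Hist2h2aa2, H1fnt and H2afy2 were not. Of the 39, 38 were well above background in all 4 channels, and no member was saturated. The exception was Hist1h3a, which in the transgenic pool was above background on 1 of the 2 arrays. The Pla2g10 probe was not above background in any of the 4 channels, so the arrays gave no check of the transgene. Of all transcript spots, 34.1% on array 1 and 28.5% on array 2 stood well above background for the transgenic pool, and 29.0% and 33.2% for the control pool, so the red channel had the larger share on each array.

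The replication-dependent histone genes were slightly lower in the transgenic pool, and the replacement histones centred near 0. Of the 29 measured replication-dependent genes, 22 (75.9%) had a log2 ratio of transgenic over control below 0 on both arrays, and 4 (13.8%) were above 0 on both. Over all 9415 measured genes, 29.0% were below 0 on both arrays and 28.4% above. The median of the replication-dependent genes was -0.19, with -0.17 on array 1 and -0.17 on array 2, beside a median of -0.0021 over all measured genes. Among the 10 replacement genes, 2 were below 0 on both arrays and 3 above. Their median was -0.0020 by the mean of the arrays, and it was 0.02 on array 1 and 0.04 on array 2 alone. The replication-dependent median lay below the replacement median by -0.19 on array 1 and by -0.21 on array 2. The 2 classes overlapped widely, from -0.34 to 0.52 for replication-dependent genes and from -0.30 to 0.46 for replacement genes.

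The count of genes below 0 on both arrays depended on removing the dye bias that varies with intensity. With median centring in place of loess, the medians of all measured genes were 0.38 on array 1 and -0.44 on array 2, and 0 of the 29 replication-dependent genes were below 0 on both, against 4.44% of all measured genes. The deposited table was centred here on each array's median over all transcript spots, which left medians of 0.37 and -0.33 over all measured genes. By these values 3 of the 29 were below 0 on both, against 10.6%, a share like that of all genes. By the scanner software's log ratios 21 of the 29 were below 0 on both, against 29.1%. In the mean of the 2 dye orientations, 23 of the 29 were below 0 with median centring and 22 with loess or by the deposited table. With loess, 4771 of all 9415 measured genes were below 0 in that mean. The median of all measured genes in that mean was -0.0021 with loess, -0.0347 with median centring and 0.0116 by the deposited table. The count was repeated on genes with a mean log2 intensity of at least 8, where 16 of 20 replication-dependent genes (80.0%) were below 0 on both arrays, against 30.0% of 2478 such genes in all.

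**Figure D1:**
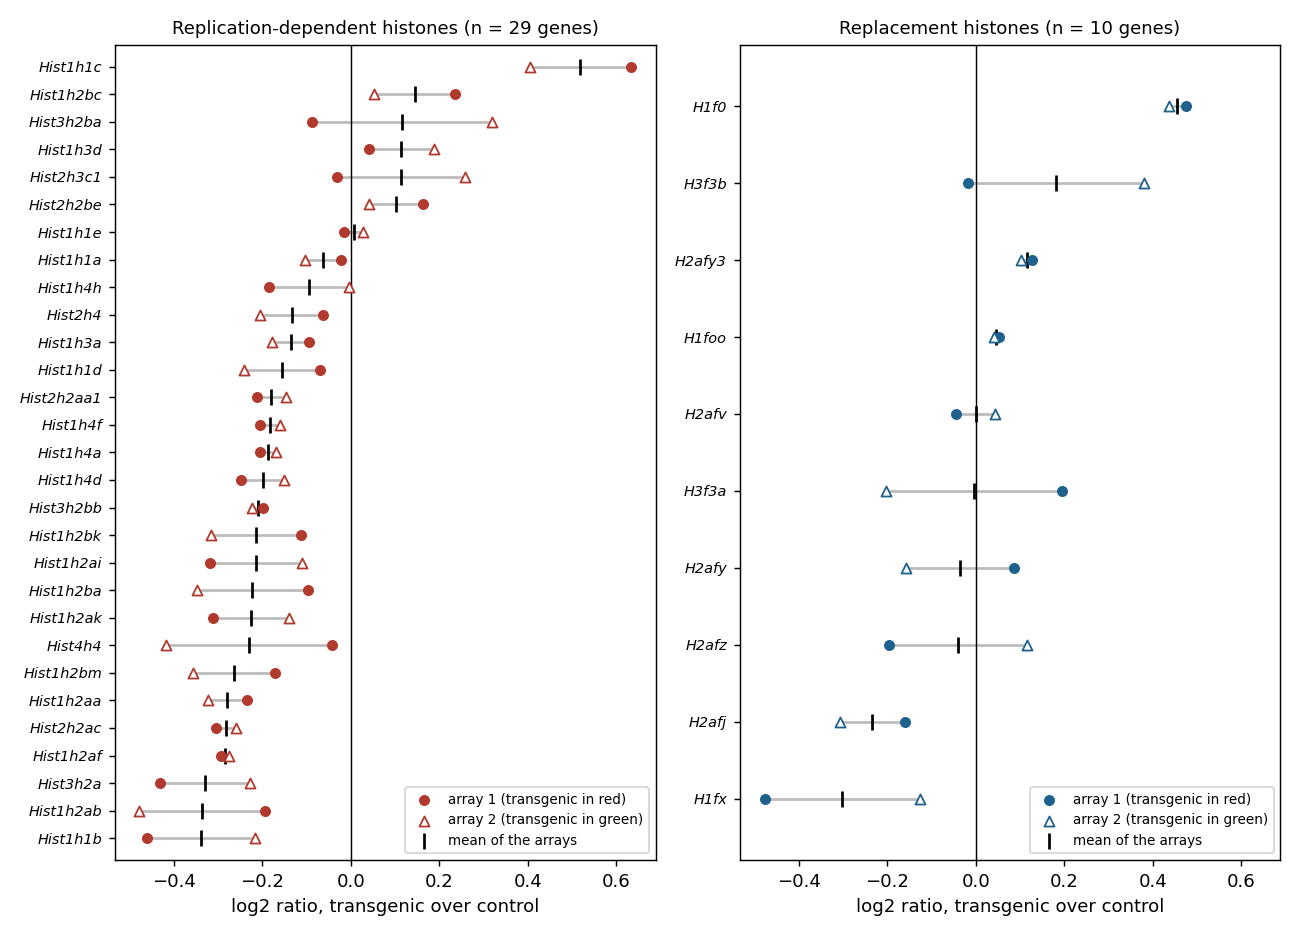
Log2 ratio of transgenic over control for each of the 29 measured replication-dependent and 10 measured replacement histone genes, with filled circles for array 1, open triangles for array 2 and a black bar for their mean. Most replication-dependent genes lie left of 0 on both arrays, with Hist1h1c at 0.63 and 0.40, and among replacement genes H1f0 lies apart at 0.48 and 0.44.

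Single genes differed by little. A 2-fold call needed a mean log2 ratio of 1 or more in either direction, with both arrays past 0.5 in that direction, and 0 of the 39 histone genes met it, against 0.0319% of all measured genes. With a smaller step of 0.25 on each array (1.19-fold), 2 histone genes were lower, Hist1h2af and Hist2h2ac, against 1.32% of all measured genes. By the same step 2 were higher, Hist1h1c and H1f0, against 1.69%. In opposite directions on the 2 arrays by that step were 0 histone genes, against 0.552%. Among the genes of log2 intensity 8 or above, 2 of 27 histone genes were lower by 0.25 on each array, against 2.87%. On 1 array alone the counts were as high or higher, which the rule itself requires. At least 0.25 lower were 7 histone genes on array 1, against 7.18% of all measured genes, and 9 on array 2, against 5.12%. At least 0.25 higher were 2 on array 1, against 9.18%, and 5 on array 2, against 4.32%. With an offset of 0 there were 2 genes lower by 0.25 on each array, and by the scanner software's own log ratios 3, against 4.11% and 5.03% of all measured genes, of which 0 were Hist1h2af or Hist2h2ac in either case. Limma's moderated test over the 2 arrays covers the spread between arrays, not between animals. It called 0 histone genes lower and 2 higher at an adjusted p of 0.05, against 0.69% and 1.08% of all measured genes, and at an unadjusted p of 0.05 it gave 16 lower and 2 higher, against 5.66% and 6.83%.

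The log2 ratios of the 2 arrays, taken to share their RNA pools, correlated over the 39 histone genes with Pearson's r = 0.584 and Spearman's rho = 0.484. Over all 9415 measured genes the same values were 0.313 and 0.24. Genes are not independent replicates, and these values describe only how alike the arrays ordered them.

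**Figure D2:**
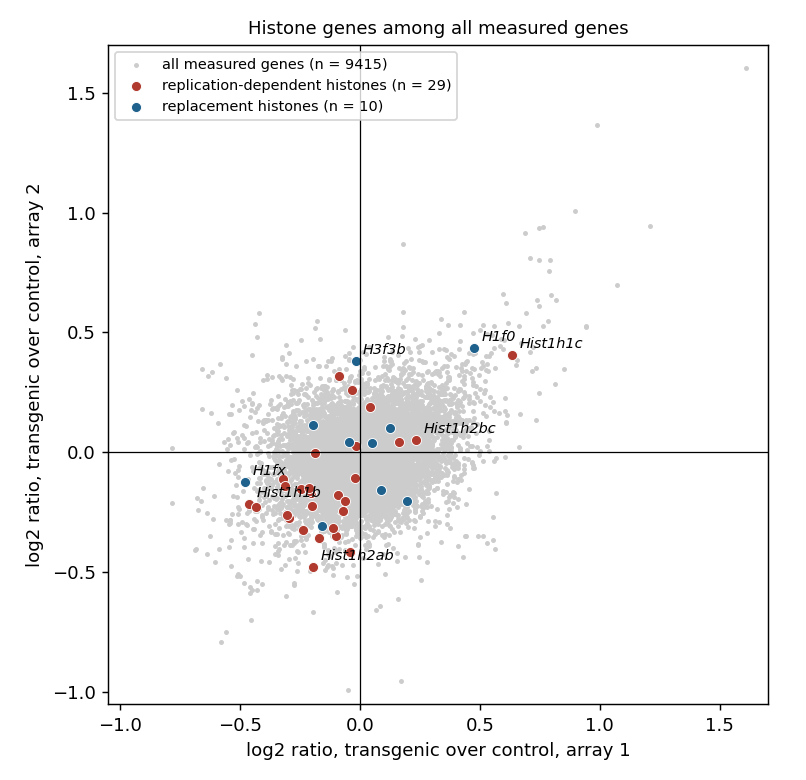
Log2 ratio of transgenic over control on array 1 (x axis) and array 2 (y axis) for all 9415 measured genes (grey), the 29 replication-dependent histone genes (red) and the 10 replacement histone genes (blue). The replication-dependent genes gather at the lower left, where 22 of 29 are below 0 on both axes, and Hist1h1c and H1f0 lie in the upper right.

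Linker histones H1 bind DNA between nucleosomes, and this subtype held the highest ratio of the measured histone genes and one of the lowest. The net signal of Hist1h1c (mean minus local background, before normalization) was 280.0 in the transgenic pool and 101 in the control pool on array 1, and 121 and 143 on array 2. The red channel was the brighter on each array, and after loess the transgenic pool was higher on both, with log2 ratios of 0.63 and 0.40. Their mean was 0.52 ± 0.16 (SD, n = 2 arrays), and limma's adjusted p was 0.00508. Hist1h1c is a somatic linker histone whose probe lies at chr13:23747614-23747673 (mm8).

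H1f0, the replacement linker histone of non-dividing cells, gave net signals of 185 and 76.4 in the transgenic and control pools on array 1, and 94.7 and 102 on array 2. Its log2 ratios were 0.48 and 0.44, a mean of 0.46 ± 0.03 (SD, n = 2 arrays) with a limma adjusted p of 0.0105. After loess the arrays thus differed by far less than the ratio itself. They stood farther apart with median centring, at 0.88 and -0.03, and by the deposited table, at 1.06 and 0.40. The other 2 probes of H1f0 were not measured, so the H1f0 value rests on 1 probe, at chr15:78856482-78856541 (mm8). With an offset of 0 in the background correction the mean was 0.68, and by the software's log ratios it was 0.71. The same settings moved other dim members by over 1.5 times. Hist1h3a went from -0.14 to -0.46 and -0.59, H2afy3 from 0.12 to 0.25 and 0.25, and H1foo from 0.05 to 0.12 and 0.12. Hist1h1d went from -0.16 to -0.27 and -0.28.

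Among the lowest was Hist1h1b, a linker histone of dividing cells that lies in the same chromosome 13 cluster as Hist1h1c, with its probe at chr13:21787519-21787578 (mm8). Hist1h2ab was as low. It was the lower of the pair with median centring, without background correction, by the software's log ratios and by the deposited table. The net signals of Hist1h1b were 502 in the transgenic pool and 427 in the control pool on array 1, and 295 and 662 on array 2. The log2 ratios were -0.46 and -0.22, with a mean of -0.34 ± 0.17 (SD, n = 2 arrays) and a limma adjusted p of 0.081. H1fx, a replacement linker histone, was lower on both arrays too, at -0.48 and -0.13, a mean of -0.30 ± 0.25 (SD, n = 2 arrays). Hist1h1d gave -0.07 and -0.24, near the median of its class, and Hist1h1a gave -0.02 and -0.10 and Hist1h1e -0.02 and 0.03. The oocyte linker histone H1foo gave 0.05 and 0.04. Over the 8 measured linker histones of both classes the median was -0.03. Of these, 4 were below 0 on both arrays and 3 above, against 29.0% and 28.4% of all measured genes.

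The starts of these genes are shown because Hist1h1c and Hist1h1b differ in direction within 1 cluster, H1f0 and Hist1h1c share a direction across classes, and Hist1h2ab and Hist2h2ac stand for the H2A genes that were lower. Each window runs from 250 bases before to 50 after the start in RefSeq (GRCm38.p6). Capitals mark a match to 1 of 4 motifs, searched on both strands. The CCAAT box was searched as these 5 letters. A TATA box was taken as TATAAA and nothing else. The octamer, which binds Oct1, was spelled ATTTGCAT in the search. The H1 box of linker histone promoters was spelled AAACACA in the search. In these windows no match overlaps another.
Hist1h1c (chr13:23738557-23738856, plus strand): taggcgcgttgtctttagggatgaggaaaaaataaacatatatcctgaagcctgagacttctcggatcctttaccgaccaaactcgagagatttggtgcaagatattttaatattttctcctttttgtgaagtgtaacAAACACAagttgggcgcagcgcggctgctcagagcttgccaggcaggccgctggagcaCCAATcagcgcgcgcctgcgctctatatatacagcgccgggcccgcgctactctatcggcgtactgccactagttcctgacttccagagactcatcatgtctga
H1f0 (chr15:79027962-79028261, plus strand): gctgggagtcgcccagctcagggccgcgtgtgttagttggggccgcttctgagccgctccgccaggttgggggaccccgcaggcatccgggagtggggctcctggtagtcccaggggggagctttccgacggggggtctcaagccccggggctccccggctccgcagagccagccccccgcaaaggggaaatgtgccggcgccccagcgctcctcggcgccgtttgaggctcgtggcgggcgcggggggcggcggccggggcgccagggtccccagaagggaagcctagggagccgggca
Hist1h1b (chr13:21780576-21780875, minus strand): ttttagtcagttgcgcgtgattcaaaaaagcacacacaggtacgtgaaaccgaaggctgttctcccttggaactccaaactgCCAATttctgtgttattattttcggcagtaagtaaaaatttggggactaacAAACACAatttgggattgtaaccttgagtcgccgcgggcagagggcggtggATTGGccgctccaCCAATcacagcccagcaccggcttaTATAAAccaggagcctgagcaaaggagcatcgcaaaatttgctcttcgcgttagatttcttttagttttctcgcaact
Hist1h2ab (chr13:23750838-23751137, plus strand): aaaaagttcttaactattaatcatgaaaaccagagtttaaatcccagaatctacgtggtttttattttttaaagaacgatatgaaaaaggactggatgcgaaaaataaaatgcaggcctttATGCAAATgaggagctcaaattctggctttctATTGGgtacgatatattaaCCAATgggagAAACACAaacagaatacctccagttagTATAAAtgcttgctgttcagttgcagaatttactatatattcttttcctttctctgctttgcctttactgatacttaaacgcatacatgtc
Hist2h2ac (chr3:96220831-96221130, minus strand): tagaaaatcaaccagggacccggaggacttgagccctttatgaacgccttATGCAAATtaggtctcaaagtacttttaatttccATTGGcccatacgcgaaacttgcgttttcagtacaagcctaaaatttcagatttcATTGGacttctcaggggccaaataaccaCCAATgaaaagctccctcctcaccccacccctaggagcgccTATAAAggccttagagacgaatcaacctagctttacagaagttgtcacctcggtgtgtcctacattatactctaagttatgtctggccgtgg

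The windows of Hist1h1c and Hist1h1b both hold an H1 box and CCAAT, and that of Hist1h1b also holds TATAAA. The window of H1f0 holds none of the 4 motifs. A RefSeq window was found for 37 members, 27 replication-dependent and 10 replacement. CCAAT stood in 25 of the 27 and 6 of the 10, against 37.4% of all 32851 windows. TATAAA was in 18 of the 27 and 1 of the 10, against 13.6%. The octamer was in 10 of the 27, of which 6 are among the 10 H2A genes and 4 among the 5 H2B genes, and in 1 of the 10 replacement genes, against 1.74%. For the H2B gene Hist1h2be the counted window holds an octamer, and a further RefSeq window of this gene, not counted, holds none. The H1 box was in 5 of the 6 replication-dependent H1 genes, in 9 of all 27 and in 1 of the 10, against 7.18%. A match describes the letters in the window and is not a measured binding site.

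Among the core histones, all 8 measured replication-dependent H2A genes were below 0 on both arrays, against 29.0% of all measured genes. Their median was -0.28. H2A pairs with H2B in the nucleosome. Hist1h2af gave net signals of 25627 in the transgenic pool and 13230 in the control pool on array 1, and 9131 and 27404 on array 2. The red channel was again the brighter, and after loess the log2 ratios were -0.29 and -0.27. The mean was -0.28 ± 0.01 (SD, n = 2 arrays), so the arrays were nearly equal in this setting. They stood farther apart with an offset of 0, at -0.08 and -0.46, and by the software's log ratios, at -0.20 and -0.49. For Hist2h2ac the signals were 17312 and 9364 on array 1 and 6596 and 19055 on array 2, and the log2 ratios were -0.31 and -0.26. Hist1h2ab gave -0.20 and -0.48, Hist3h2a -0.43 and -0.23, and Hist1h2aa -0.24 and -0.32. Each of these was lower on both arrays, but the arrays differed more for the first 2. The 3 measured probes of Hist3h2a ranged from -0.33 to 0.07, so its value depended on the probe, and the mean of its probes was -0.10. The other 3 H2A genes had means from -0.23 to -0.18.

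Hist1h2aa, like Hist1h2ba, belongs to a pair of histone genes known from testis, and its probe was well above background in all 4 channels. The testis germ cell markers Prm1, Prm2, Tnp1 and Tnp2 were not measured, and 3 of these 4 were above background in no channel. Coding sequences of the replication-dependent core histones are nearly identical within a subtype. No probe sequence was used here, so the value of a single such gene is uncertain where its probe may also read its copies, and members of a subtype are not independent.

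The 6 measured H4 genes, which encode the same protein, were also all below 0 on both arrays, against 29.0% of all measured genes. The H4 median was -0.19. Hist4h4, the one measured gene of the Hist4 locus, had the lowest mean of them, -0.23 ± 0.27 (SD, n = 2 arrays), and its arrays stood far apart at -0.04 and -0.42. Hist1h4a, Hist1h4d and Hist1h4f had closer arrays, -0.21 and -0.17, -0.25 and -0.15, and -0.21 and -0.16. The mean of the arrays stayed below 0 for all 8 H2A and all 6 H4 genes with the other background corrections, with median centring, by the software's log ratios and by the deposited table.

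The H2B and H3 genes were mixed. Of 7 measured H2B genes, 4 were below 0 on both arrays and 2 above, against 29.0% and 28.4% of all measured genes. The H2B median was -0.21. Hist1h2bm, the lowest, gave -0.17 and -0.36. Hist1h2bc gave 0.23 and 0.05 and Hist2h2be 0.16 and 0.04, both higher on both arrays, while Hist3h2ba had arrays of opposite sign at -0.09 and 0.32. The 3 measured H3 genes had a median of 0.11, with Hist1h3d at 0.04 and 0.19, Hist2h3c1 at -0.03 and 0.26, and Hist1h3a at -0.09 and -0.18, the last with the dependence on the setting given above. Over all 24 replication-dependent core histone genes, 19 were below 0 on both arrays, against 29.0% of all measured genes, and the median was -0.21.

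By position, 20 measured genes lie in the Hist1 cluster on chromosome 13, 16 of them below 0 on both arrays, with a median of -0.19. Of all measured genes, 29.0% were below 0 on both arrays, the share to set beside each count in this paragraph. The cluster falls in a stretch at chr13:21729735-22048051 (mm8, from the probe positions), where all 6 measured genes were below 0 on both arrays, and a stretch at chr13:23541704-23942314, where 10 of 14 were. Hist1h1c and the other 3 genes of Hist1 with a mean above 0 all lie in the second stretch. The Hist2 cluster on chromosome 3 had 3 of 5 below 0 on both arrays with a median of -0.13. The Hist3 cluster on chromosome 11 had 2 of 3, with a median of -0.21.

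The replacement H2A and H3 histones showed no common direction. H2afj was lower on both arrays by its brightest probe, at -0.16 and -0.31, but its second measured probe gave 0.10 and -0.18. H2afy3 was higher on both arrays, at 0.13 and 0.10. H2afz, which encodes H2A.Z, found at gene starts, gave -0.20 and 0.12, and the closely related H2afv gave -0.04 and 0.04. H2afy, the gene of macroH2A, gave 0.09 and -0.16. For all 3 the mean was smaller than the spread between arrays. The second measured probe of H2afy was lower on both arrays, at -0.42 and -0.04. H3f3a and H3f3b encode the same H3.3 protein. H3f3a gave 0.20 and -0.20, and H3f3b -0.02 and 0.38. The second measured probe of H3f3b gave 0.34 and 0.68, so the 2 probes of this gene differed by 0.33 in their means.

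The lists of genes that make and place histones, or act in S phase, had medians from -0.10 to -0.02. The transcription and 3′ processing list (regulators of histone gene transcription and factors that cut or degrade histone messages) had 13 measured of 18 genes on the array, with a median of -0.10, 6 below 0 on both arrays (46.2%) and 1 above (7.69%), against 29.0% and 28.4% of all measured genes. Its 3 genes farthest from 0 were Thex1, an exonuclease that trims histone messages, at -0.13 and -0.31, the scaffold Sympk at -0.30 and 0.02, and the helicase Upf1 at -0.25 and -0.03. Slbp, the stem-loop binding protein, gave 0.03 and -0.28. In the chaperone list, 21 of 22 were measured, with a median of -0.02, 8 below 0 on both arrays (38.1%) and 4 above (19.0%). Nap1l1, an H2A-H2B chaperone, was at 0.36 and 0.10, Asf1b at -0.29 and -0.05, and Asf1a at -0.04 and -0.29; the last 2 are H3-H4 chaperones. The S phase list had 22 measured of 23, a median of -0.08, 9 below 0 on both arrays (40.9%) and 4 above (18.2%). Mcm2, a subunit of the replicative helicase, was at -0.09 and -0.36, the helicase cofactor Cdc45l at a mean of -0.13 ± 0.19 (SD, n = 2 arrays), and the ribonucleotide reductase subunit Rrm1 at 0.06 and 0.21. In each of the 3 lists, 0 genes were 0.25 lower or higher on both arrays. The S phase median was thus less far from 0 than that of the replication-dependent histones, a difference that was not tested.

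**Figure D3:**
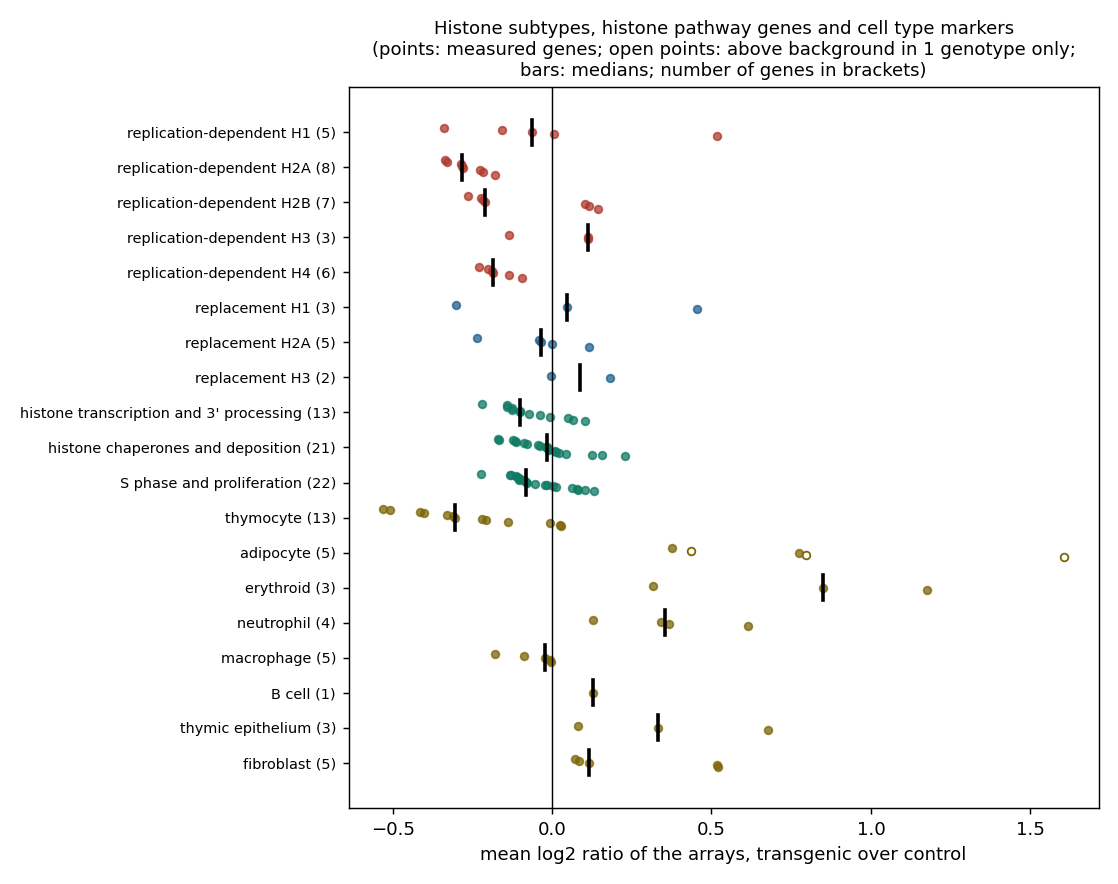
Mean log2 ratio of the arrays (x axis) for each measured gene (points) of the histone subtypes, the histone pathway lists and the cell type marker lists, with black bars for medians, the number of genes in brackets, and open points for markers above background in 1 genotype only, whose list has no median. The replication-dependent H2A and H4 points all lie below 0, the pathway lists have medians from -0.10 to -0.02, and thymocyte markers have a median of -0.30.

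Several lists of cell type markers also lay away from 0. Of the 13 measured thymocyte markers of 14, 10 were below 0 on both arrays, against 29.0% of all measured genes. By 0.25 on each array 5 were lower, against 1.32%, and the median was -0.30. Cd8a, a coreceptor of immature and CD8 T cells, gave -0.51 and -0.51, and Cd4 gave 0.02 and 0.03. The summed net signal of this list, before normalization, was 41600 and 17300 in the transgenic pool on arrays 1 and 2, and 25400 and 48100 in the control pool. The red channel had the larger sum on each array, so these sums do not compare the genotypes. Of 7 adipocyte markers 5 were measured, but Car3, Cfd and Cidec were above background in the transgenic pool only and passed the filter through it, so no count or median is given. Fabp4 and Lpl, above background in both pools, gave 0.75 and 0.80, and 0.40 and 0.35. The summed signal of all 7, with Car3, Cfd and Cidec among them and before normalization, was 1980 and 991 in the transgenic pool and 612 and 883 in the control pool. Like the thymocyte sums, the adipocyte sums were not corrected for the dye, and no comparison of the genotypes is drawn from them. The 3 measured erythroid markers had a median of 0.85, and Slc4a1 was above background in no channel. The 4 measured neutrophil markers of 5 had a median of 0.35, the 3 thymic epithelial markers of 4 one of 0.33, the 5 fibroblast markers one of 0.12, the 5 macrophage markers one of -0.02, and Cd79b, the 1 measured B cell marker of 4, was at 0.13. With an offset of 0 the neutrophil and thymic epithelial medians were 0.65 and 0.67, and by the software's ratios 0.69 and 0.69. The part that these shifts play in the histone ratios was not tested. In whole tissue, fewer cells of a type and less RNA per cell cannot be told apart.

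**Figure D4:**
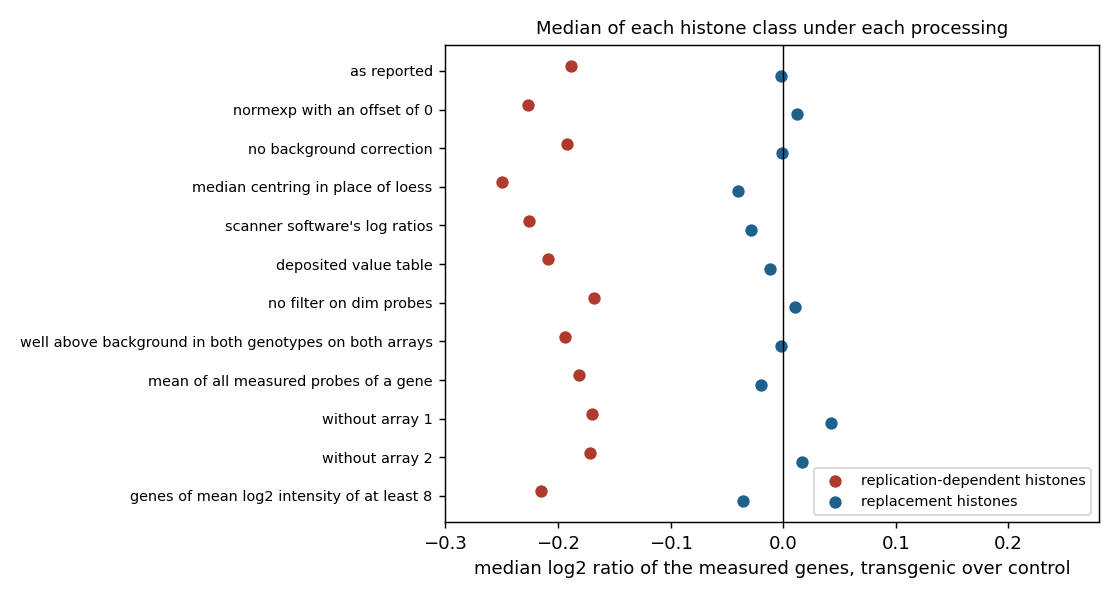
Median log2 ratio (x axis) of the measured replication-dependent (red) and replacement (blue) histone genes as reported and under each other processing (rows). The replication-dependent median stays between -0.25 and -0.17, and the replacement median lies on both sides of 0, between -0.04 and 0.04.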

How the data were processed

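The deposited scanner files hold a mean and a local background intensity per spot and channel on a linear scale (per the file headers, from Feature Extraction version 9.5.1.1). In the deposited value table, entries equalled log10 of red over green processed signal within 5e-10, with no centring and no change of sign for array 2. Further steps by the authors were not stated. For use as alternatives, the deposited table and the software's log ratios were centred here on each array's median over all transcript spots. Mean signals were background-corrected by normexp with an offset of 50 and each array was then loess-normalized, giving control and outlier spots weight 0 (limma 3.58.1, R 4.3.3). The sign of array 2 was turned, and all log2 ratios are transgenic over control. Limma's adjusted p-values (lmFit, eBayes, Benjamini-Hochberg over all 9415 measured genes) cover the spread between the 2 arrays only. The calling scripts were tested on simulated data.

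Genes named with array values were, per class, the 8 highest and 8 lowest with 1 sign on both arrays, all linker histones, and the 3 of each pathway list farthest from 0. Other genes were named after their values were seen. Members and lists were chosen with earlier results of these data known. RefSeq gave a current symbol for 41 members by accession, and 38 differ from the array's name, which was kept. Probe positions are on mm8, per the file headers, and without an annotation of mm8 the exon or UTR of a probe is not stated. The number of arrays limits the precision. Alternatives were other background corrections, centring, the software's and deposited ratios, other filters and probe rules, and each array alone. Genes of mean log2 intensity 8 or above were added after seeing the data. 1 listed marker is not reported here.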

Additional observations from a re-analysis of the deposited data

How the results depend on the processing

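The median of the replication-dependent genes was -0.19 and stayed below 0 under every alternative tried. It was -0.23 with an offset of 0, -0.19 without background correction, -0.25 with median centring, -0.23 by the software's log ratios, -0.21 by the deposited table, -0.17 without a filter on dim probes, -0.19 for genes above background in both genotypes on both arrays, -0.18 over all measured probes of a gene, and -0.22 for bright genes. On single arrays it ranged from -0.17 to -0.17. The replacement median had no stable sign: it was 0.012 with an offset of 0, 0.011 without a filter, 0.017 to 0.043 on single arrays, -0.040 with median centring, -0.029 by the software's ratios and -0.036 for bright genes. The difference of the medians was -0.24 with an offset of 0, -0.21 with median centring, -0.16 over all probes, and -0.21 to -0.19 on single arrays. Of histone genes lower by 0.25 on each array, there were 0 with median centring, against 0.0425% of all measured genes. By the deposited table after the centring on all transcript spots there were 0, against 2.33%. Over all probes there was 1. On array 1 alone there were 7 and on array 2 alone 9, against 7.18% and 5.12%. Of those higher, there were 0 with median centring, against 0.159%. On array 1 alone 2 were higher and on array 2 alone 5, against 9.18% and 4.32%. Limma's test, which sets no size of difference, called 0 histone genes lower and 2 higher, against 0.69% and 1.08% of all measured genes. The 2-fold rule called 0, against 0.0319%. Of the 39 measured histone genes, 2 changed sign with an offset of 0, 1 without background correction, 1 with median centring, 6 on array 1 alone and 2 on array 2 alone. Each log2 ratio compares the genotypes within 1 array. The arrays were taken to hold the same pools, which the labels do not state, so they gave no replicate pairs of animals. Biological spread was not measured, and the causes of these changes were not tested.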
